A study of Mus musculus with 12 samples.

Results

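This part covers the immune families of antigen presentation, complement, Fc receptors, chemokines, cytokines and interferons, and the leukocyte surface antigens. The genes described here carry names of these groups and were measured in the mouse renal medulla. They were chosen by name: the annotated symbol of a clone had to begin as a histocompatibility (H2-), CD antigen, C1q, complement, Fc receptor, chemokine, chemokine receptor, interleukin, interferon, Irf, Isg, Stat, Toll-like receptor or lysozyme gene, or be one of a few leukocyte genes such as Blnk. Cxcl1, whose symbol begins as a chemokine gene, was left out by name and is described further below with genes outside the set. The rule found 65 of the 6786 named genes, carried by 73 of 9191 clones with 1 annotated gene, and 7 members had more than 1 clone. The rule used symbols and no measured value, but the members were chosen with earlier results of these data known. No gene named C2 to C9, no Toll-like receptor and no chemokine receptor other than Cxcr4 was among them. Members are called immune genes below by name alone. Some, such as H2-Ke6 and Cd2bp2, have another role, and some measured genes of these pathways, such as B2m and Mif, are not members.

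RNA came from the renal medulla, the inner kidney where urine is concentrated, of 3 water-restricted mice and 3 control mice. It was amplified and hybridised in pairs to 2-colour arrays, with each water-restricted mouse set against each control mouse. The 9 pairs gave 12 arrays, since 3 pairs were made in both dye orientations. Not given in the sources used here were strain, sex, age and the length of the restriction. The values are log2 ratios, so they compare mice and give no level of a gene in the tissue, and the labelled tissue could not be checked against the levels of its markers.

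The direction of a difference is not settled. Were Alexa Fluor 546 the numerator of the deposited ratio, a positive value would stand for more RNA in water-restricted mice; were Alexa Fluor 647 the numerator, it would stand for less. On 6 arrays Alexa Fluor 647 labelled the water-restricted mouse, and their values had the sign changed so that all arrays ran the same way. The labels do not state whether the authors had already done so, and values under that reading are given for the members the results turn on. In the 3 swapped pairs, 39, 25 and 33 of the 65 members had the same sign on both arrays after turning. All members share 1 orientation, so once turned, members on opposite sides differed in opposite ways whichever dye is the numerator. The level of a mouse below is its fitted log2 ratio to the mean of the 6 mice, and a difference is the mean level of the 3 water-restricted mice minus that of the 3 control mice. The spread of the ratios over spots was 0.515 to 0.764 (SD) on 11 arrays. It was 1.21 on the array that paired water-restricted mouse 2 with control mouse 2, which stood apart.

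Major histocompatibility class II molecules present peptides from engulfed material to T cells, and dendritic cells, macrophages and B cells carry most of them. Complement C1q and Fc receptors recognise antibody-coated targets. Chemokines attract leukocytes, while interferons and many, though not all, interleukins act through receptors that signal to the nucleus by Stat proteins. Irf factors drive interferon-induced genes. The kidney holds many resident macrophages and dendritic cells, and in the medulla they lie in a hypertonic interstitium that becomes more so when water is scarce.

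The differences of the immune genes between water-restricted and control mice lay about evenly on both sides of 0. Of the 65 genes, 32 lay on the positive and 33 on the negative side. The median difference was -0.0034 log2, against 0.0033 over all genes, and the SD of the differences was 0.25, against 0.25 over all genes. The difference lay within 0.25 of 0 in either direction for 50 of the 65 (76.9%), against 75.7% of all genes. It was past 0.5 for 4 genes (6.15%), against 5.48% of all genes. These were Blnk, Cxcl12, Cd200 and H2-Eb1. Cxcl1, left out of the set, lay further from 0 than any member, at 1.49.

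**Figure D1:**
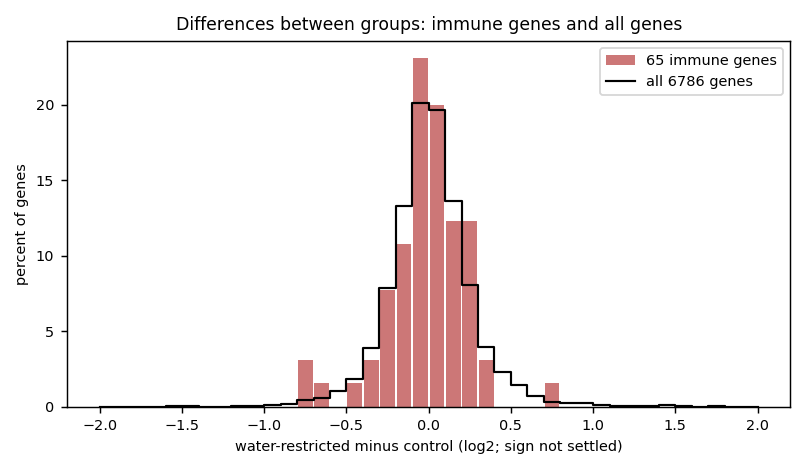
Distribution of the difference between groups (x axis, water-restricted minus control, log2, sign not settled) as percent of genes (y axis) in bins of equal width; bars are the 65 immune genes and the line is all 6786 genes. Both centre on 0 and have nearly the same width, with SDs of 0.25.

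No member passed the threshold in the comparison of groups. By limma on the levels of 3 against 3 mice, with Benjamini-Hochberg adjustment over all genes, 0 of the 65 had an adjusted p under 0.05. Over all 6786 genes this was also 0, so percent called was 0%, and the smallest adjusted p of a member was 0.553 (Blnk). At an unadjusted p under 0.05 there were 0 members on the positive side and 2 on the negative side, Blnk and Cd200. Over all genes 3.21% had such a p on the positive and 1.75% on the negative side. Read as already turned by the authors, the values gave Cd34 and Cxcr4 in place of these members. The levels of the groups did not overlap for 4 members on the positive side, against 5.94% of all genes, and for 4 on the negative side, against 3.86% of all genes. Together these 8 members were 12.3% of the set, and 9.80% of all genes were separated in either direction. The 95% interval of a member's difference, not adjusted over genes, reached a median of 0.42 log2 to each side. Differences within that range could mostly not be told from 0 with this number of mice. Larger ones could also miss the adjusted threshold, as that of Blnk did at -0.77.

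**Figure D2:**
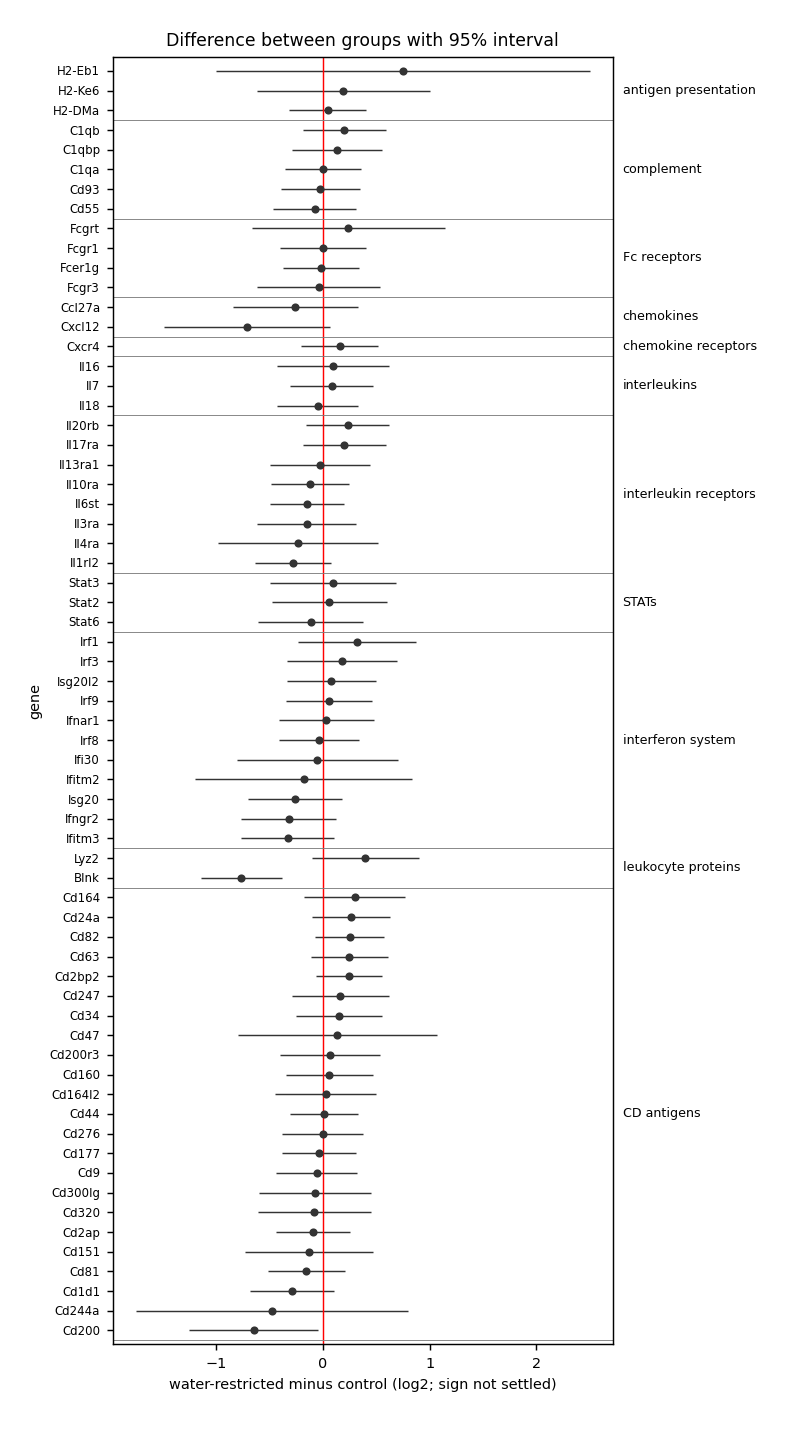
Difference between groups for each of the 65 immune genes, in rows by role (x axis, water-restricted minus control, log2, sign not settled); points are differences of 3 water-restricted and 3 control mice and bars are 95% intervals. The intervals of Blnk and Cd200, both negative, do not reach 0, and that of H2-Eb1 is the widest.

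Of 3 genes with an H2 symbol, H2-Eb1 and H2-DMa act in antigen presentation, and H2-Eb1 had the largest spread among the mice of any member. H2-Eb1 encodes the beta chain of the class II molecule I-E. Its levels were 0.47, 1.35 and -0.70 in water-restricted mice 1, 2 and 3, against 0.55, 0.51 and -2.18 in control mice 1, 2 and 3. Mouse 3 of each group had the most negative level of its group, control mouse 3 lay furthest from the rest, and the groups overlapped. The level averaged 0.38 ± 1.03 in water-restricted and -0.38 ± 1.57 in control mice (SD, n = 3 each). The difference of 0.75 (SE 0.76, limma adjusted p = 0.996) was no larger than its error, and it turned to -0.15 without control mouse 3 and was 0.26 without water-restricted mouse 2. In bulk tissue, fewer cells of a type and less RNA per cell cannot be told apart.

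Differences between mice of the same group were tested with limma's F-test on the 12 arrays, whose error is that between arrays. H2-Eb1 was the 1 member that passed (F = 21.8, adjusted p = 0.0312), and 24 of the 6786 genes, 0.354%, did so. Control mouse 3 minus the mean of control mice 1 and 2 was -2.71 (SE 0.35). Water-restricted mouse 3 minus the mean of water-restricted mice 1 and 2 was -1.61 (SE 0.35). The 4 arrays with control mouse 3 had ratios of 1.88 to 3.12, all positive, against -1.96 to 1.93 on the other 8. In the 3 pairs hybridised in both dye orientations the turned ratios were 2.47 and 2.88 for mice 1 and 3, 0.10 and 0.14 for mice 2 and 1, and -1.50 and -1.96 for mice 3 and 2, the water-restricted mouse first. As deposited, before turning, each of these pairs had opposite signs. Both spots of the clone differed by at most 0.76 on 11 arrays, and on the array that stood apart they gave 2.75 and 1.12.

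Without that array F was 99.5 (limma adjusted p = 0.00046). The call was kept without water-restricted mouse 2 (F = 74.8, adjusted p = 0.0274). It was lost with fewer arrays on leaving out any other mouse, but F differed widely. F was 18.4 without water-restricted mouse 1 (adjusted p = 0.493) and 14.9 without water-restricted mouse 3 (0.157). It was 38.0 without control mouse 1 (0.191), 66.2 without control mouse 2 (0.0552), and 3.80 without control mouse 3 (0.433), the lowest of these. With no dye term F was 16.8 (0.0763). Read as already turned by the authors, the deposited values gave F = 0.99 (adjusted p = 0.713).

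Other markers of antigen-presenting cells were set beside H2-Eb1. The mean level of the 4 measured macrophage markers, of 16 listed (C1qa, C1qb, Fcgr1 and Lyz2), was 0.04 in water-restricted mouse 3 and -0.02 in control mouse 3, and its most negative mouse was control mouse 2, at -0.24. In water-restricted mouse 3 this mean held Lyz2 at 0.46, while C1qa at -0.11, C1qb at -0.08 and Fcgr1 at -0.12 were each most negative of that group there. In control mouse 3, Fcgr1 at -0.27 was the most negative of the 6 mice, while C1qa at 0.06, C1qb at 0.07 and Lyz2 at 0.07 were positive. Of related genes not on the list, Fcgr3 at -0.53 was also most negative in control mouse 3, and Fcer1g had 0.04 there. Rac2, the 1 measured pan-leukocyte marker of 11, had -0.57 in water-restricted mouse 3 and 0.24 in control mouse 3. Blnk, the 1 measured B cell marker of 7, had -0.20 in water-restricted mouse 3 and 0.49 in control mouse 3, its most positive mouse. Of the listed dendritic cell and T cell markers none was measured. H2-DMa, which helps load peptides on class II molecules, had levels of 0.20, -0.15 and 0.01 in water-restricted mice, against 0.08, -0.01 and -0.13 in control mice. The groups overlapped, and its contrast for control mouse 3 was -0.16 (SE 0.15). The remaining H2 symbol, H2-Ke6, names a steroid dehydrogenase gene, Hsd17b8, that lies in the histocompatibility region and presents no antigen. Its levels were -0.82, 0.49 and 0.61 in water-restricted and 0.10, -0.28 and -0.10 in control mice, with the 2 extremes of its range in water-restricted animals. Both arrays of water-restricted mouse 3 with control mouse 2 were far apart for H2-Ke6, at -0.27 and 2.67. Its spots differed by up to 2.24 on an array.

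**Figure D3:**
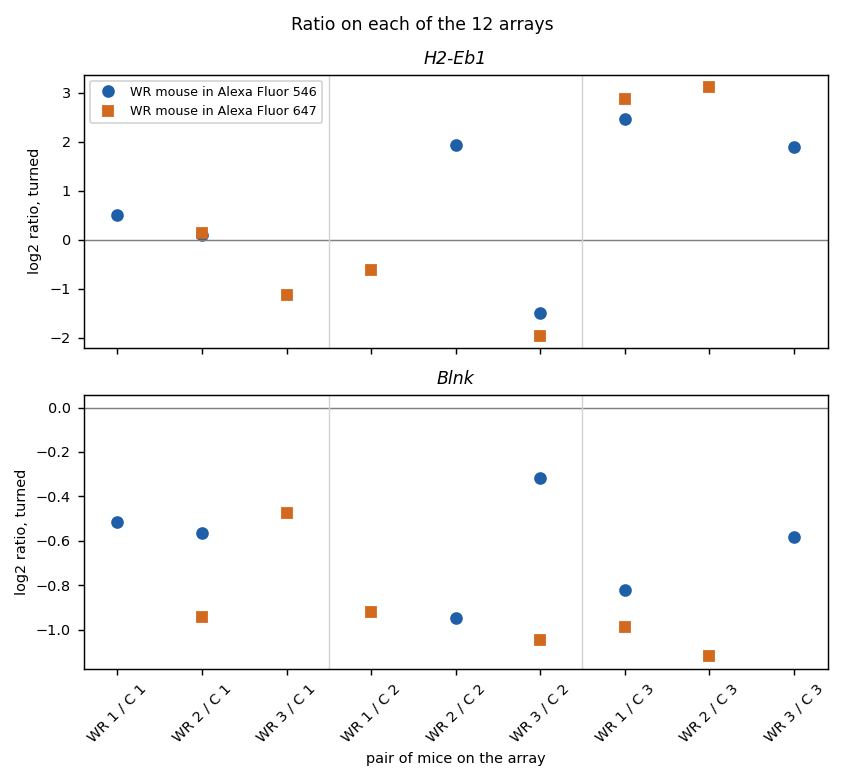
Turned log2 ratio of H2-Eb1 (upper panel) and Blnk (lower panel) on each of the 12 arrays (y axis), by pair of mice (x axis; WR water restricted, C control); circles mark arrays where Alexa Fluor 546 labelled the water-restricted mouse and squares those where Alexa Fluor 647 did. H2-Eb1 is at 1.88 or more on the 4 arrays with control mouse 3, while Blnk is negative on all 12.

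Class II genes share a proximal promoter with an X box, bound by the RFX complex, and a Y box, bound by NF-Y, on which the coactivator CIITA acts. The promoter of H2-Eb1 is printed because this gene had the largest differences between mice. The window is chr17:34305617-34305916 on the plus strand of GRCm38.p6, from RefSeq, and runs from 250 bases before to 50 after the start. Capitals mark a match to the X box core TAGCAAC, first base at -93 from the start, and one to the Y box CTGATTGG at -62.
H2-Eb1: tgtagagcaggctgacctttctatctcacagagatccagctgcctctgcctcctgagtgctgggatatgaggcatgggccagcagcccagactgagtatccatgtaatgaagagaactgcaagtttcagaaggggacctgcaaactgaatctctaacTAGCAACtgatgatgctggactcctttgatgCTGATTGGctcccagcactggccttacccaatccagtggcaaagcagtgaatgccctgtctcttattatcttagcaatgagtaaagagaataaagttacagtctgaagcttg
Both motifs were searched on both strands, and their letters were chosen after the values had been seen. Among the 57 members with a promoter in the table, H2-Eb1 was the 1 gene with both. The X box core was in 2 members (3.51%) and the Y box in 3 (5.26%). Of all 27025 genes with a promoter, measured here or not, 4.28% had the X box core and 4.70% the Y box. A match is a description of these letters, and no measurement here bears on binding. Ciita was not among the measured genes.

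The leukocyte proteins were Blnk and Lyz2. Blnk, the adaptor that links the B cell receptor to downstream kinases and phospholipase, had the smallest p of the set in the comparison of groups. Its levels were -0.40, -0.56 and -0.20 in water-restricted mice, against 0.20, 0.47 and 0.49 in control mice, and the groups did not overlap. They averaged -0.38 ± 0.18 in water-restricted and 0.38 ± 0.16 in control mice (SD, n = 3 each). The difference was -0.77 (SE 0.17, 95% interval -1.15 to -0.39), with a limma adjusted p of 0.553, which did not pass. The turned ratio was negative on 12 of 12 arrays, from -1.12 to -0.32, and 139 of all genes, 2.05%, had 1 sign on all arrays. With mice as random effects, a fit that called 0.884% of all genes, Blnk was the 1 member called (SE 0.11, adjusted p = 0.00623). That fit gave every gene the same share of variance between mice, a consensus of 0.222, and did not estimate it gene by gene. Its p-values, here and below, rest on that shared value. Read as already turned, the deposited values gave 0.12 for Blnk (adjusted p = 0.889).

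Blnk was the 1 measured of the 7 listed B cell markers. Other members that B cells express, though not they alone, lay on both sides. H2-Eb1 gave 0.75 (SE 0.76) and Cd24a 0.26 (SE 0.16), against -0.29 (SE 0.17) for Cd1d1 and -0.16 (SE 0.16) for Cd81. On the array that stood apart the 2 spots of Blnk gave 1.09 and -2.99. The marker lists of principal cells, of red cells and, by its median, of the interstitium lay on the side of Blnk, and that of the proximal tubule by its median on the other side. None of their genes passed the threshold in the comparison of groups. With mice as random effects, the fit that called Blnk, some of them passed too. These were Fxyd4 (adjusted p = 0.00617) and Krt18 (0.0175) of principal cells, and Hbb-b1 (0.0145) of red cells. Col3a1 (0.0429) of the interstitium and Miox (0.0158) of the proximal tubule also passed that fit. The mean level of 4 measured principal cell markers, of 10 listed (Fxyd4, Krt18, Gata3 and Npnt), was -0.33, -0.26 and -0.47 in water-restricted mice, against 0.20, 0.35 and 0.50 in control mice. That of 3 erythroid markers, of 5 listed (Hbb-b1, Alas2 and Slc4a1), was -0.66, -0.13 and -0.21 in water-restricted mice, against 0.25, 0.32 and 0.42 in control mice. The means of both lists did not overlap between groups, although Npnt and Alas2 alone did. Their part in the value of Blnk was not tested.

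Lyz2 encodes the lysozyme of macrophages and other myeloid cells. Its levels were 0.15, -0.02 and 0.46 in water-restricted mice, against -0.06, -0.60 and 0.07 in control mice. The groups overlapped, control mouse 2 had the most negative level, and the difference was 0.40 (SE 0.22, limma adjusted p = 0.996). It was 0.19 without control mouse 2, 0.26 without water-restricted mouse 3, and 0.05 with values read as already turned. The mean of 5 measured proximal tubule markers, of 9 listed (Lrp2, Miox, Gatm, Slc22a7 and Cyp7b1), was 0.39, 0.43 and 0.54 in water-restricted mice, against 0.22, -0.92 and -0.66 in control mice, and was also most negative in control mouse 2. Its part in the value of Lyz2 was not tested.

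The complement genes, 5 in number, all lay within 0.25 of 0. C1qa and C1qb encode chains of C1q, the recognition unit of the classical pathway, which macrophages secrete. The difference was -0.0047 (SE 0.16) for C1qa and 0.20 (SE 0.17) for C1qb. C1qb had levels of 0.08, 0.30 and -0.08 in water-restricted mice, against -0.10, -0.27 and 0.07 in control mice, with overlapping groups. C1qbp, a mitochondrial protein first found as a C1q binder, gave 0.13. Cd93, a surface glycoprotein of endothelium and myeloid cells, gave -0.03, and Cd55, which shields cells from complement, gave -0.08.

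The Fc receptor genes, 4 in number, were also within 0.25 of 0. Fcgr1, the high-affinity IgG receptor of macrophages, gave 0.0018 (SE 0.18), Fcgr3, a low-affinity IgG receptor, -0.04, and Fcer1g, the signalling chain that several Fc receptors share, -0.02. Fcgrt, the neonatal Fc receptor that rescues IgG and albumin from breakdown, had levels of -0.20, 0.68 and -0.12 in water-restricted mice, against 0.37, -1.02 and 0.29 in control mice. Its extremes in both groups were mouse 2, and both were set by 1 array: the ratio was 3.33 on the array that paired these mice, the one that stood apart, and -1.05 to 0.79 on the others. The difference was 0.24 (SE 0.39), and -0.08 without that array.

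Chemokines were represented by Cxcl12 and Ccl27a, and their receptors by Cxcr4. Cxcl12, which stromal and endothelial cells release to hold leukocytes and progenitors, had levels of -0.20, 0.17 and -1.04 in water-restricted mice, against 0.52, -0.17 and 0.72 in control mice. The groups overlapped, with water-restricted mouse 3 most negative, and the difference was -0.71 (SE 0.34, limma adjusted p = 0.996). It was -0.37 without water-restricted mouse 3, and 0.55 with values read as already turned. The ratio of Cxcl12 was negative on all 6 arrays where Alexa Fluor 647 labelled the water-restricted mouse, from -1.93 to -0.57, and ran from -1.39 to 0.90 where Alexa Fluor 546 did, with differences of -1.31 and -0.13 by orientation. Cxcr4, the receptor of Cxcl12, had levels of -0.02, 0.10 and 0.16 in water-restricted mice, against 0.14, -0.20 and -0.17 in control mice. These also overlapped, and the difference was 0.15 (SE 0.16). By orientation Cxcr4 gave -0.16 where Alexa Fluor 546 labelled the water-restricted mouse and 0.44 where Alexa Fluor 647 did. The ligand and its receptor thus had differences of opposite sign over all arrays but not in the first orientation, and neither passed the threshold. Ccl27a, a chemokine of epithelia, gave -0.26 (SE 0.26).

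The interleukins measured were Il7, Il16 and Il18. Il7 supports lymphocyte survival, and its levels were 0.27, -0.15 and -0.0021 in water-restricted mice, against -0.12, 0.13 and -0.13 in control mice. The groups overlapped, with a difference of 0.08 (SE 0.17). Il16, a chemoattractant of CD4+ cells, gave 0.09 (SE 0.23). Il18, which inflammasomes release from macrophages and epithelium, gave -0.05 (SE 0.17).

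Of 8 interleukin receptor genes, 2 were positive and 6 negative, with a median of -0.14 against 0.0033 over all genes. Il1rl2, the receptor of the interleukin-36 cytokines, had levels of -0.20, -0.16 and -0.06 in water-restricted mice, against 0.17, 0.31 and -0.05 in control mice. The groups did not overlap, though water-restricted mouse 3 and control mouse 3 were nearly equal. The difference was -0.28 (SE 0.16, limma adjusted p = 0.996). Il20rb, a chain of the receptors for interleukins of the interleukin-20 family, had 0.12, 0.18 and 0.05 in water-restricted mice, against -0.28, -0.23 and 0.17 in control mice. Control mouse 3 lay within the water-restricted range, and the difference was 0.23 (SE 0.17). Il17ra, the receptor for interleukin-17A, gave 0.20. On the negative side were Il4ra, shared by the interleukin-4 and interleukin-13 receptors, at -0.24, Il3ra at -0.15, Il6st, the gp130 chain of interleukin-6 type receptors, at -0.15, Il10ra at -0.13 and Il13ra1 at -0.03. Il4ra had the widest range among them, 1.33 log2 over the 6 mice. Both arrays of water-restricted mouse 2 with control mouse 1 were far apart for Il4ra, at -3.09 and -0.17. Its spots differed by up to 3.11 on an array, so that range was not spread among mice alone.

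The Stat genes were Stat2, Stat3 and Stat6. Stat6, which carries interleukin-4 signals, had levels of -0.46, 0.26 and 0.02 in water-restricted mice, against -0.15, 0.16 and 0.17 in control mice. The groups overlapped, and the difference was -0.12 (SE 0.21). Stat2, part of the complex that type I interferon activates, gave 0.06 (SE 0.24). Stat3, used by interleukin-6 and interleukin-10, gave 0.09 (SE 0.26), but its 2 clones disagreed. One gave -0.07 and the other 0.25, and the extremes of the second clone were 1.14 in water-restricted mouse 3 and -0.98 in control mouse 3.

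Of 11 interferon system genes, 5 were positive and 6 negative, with a median of -0.04, and none passed the threshold. Irf1, a transcription factor that interferon-gamma induces, had the largest positive difference of these. Its levels were 0.59, -0.0075 and -0.11 in water-restricted mice, against 0.20, -0.27 and -0.40 in control mice. The groups overlapped, and the difference was 0.32 (SE 0.24). It was 0.10 without water-restricted mouse 1, 0.50 without control mouse 1 and 0.19 without control mouse 3, and 1 array gave 2.89, from spots at 5.25 and 0.52. Ifngr2, the second chain of the interferon-gamma receptor, had -0.07, -0.19 and -0.23 in water-restricted mice, against -0.0061, -0.06 and 0.55 in control mice. The groups did not overlap, control mouse 3 had the most positive level, and the difference was -0.32 (SE 0.19), or -0.13 without control mouse 3. Isg20, an interferon-induced exonuclease, had 0.22, -0.20 and -0.41 in water-restricted mice, against -0.01, 0.22 and 0.18 in control mice. Water-restricted mouse 1 was level with the most positive control mouse, and the difference was -0.26 (SE 0.19). Both arrays of water-restricted mouse 3 with control mouse 2 were far apart for Isg20, at -0.34 and -1.99. Its spots differed by up to 4.01 on an array.

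Ifitm2 and Ifitm3, both on chromosome 7, encode related interferon-induced membrane proteins that restrict virus entry. Ifitm3 had levels of -0.28, 0.06 and -0.28 in water-restricted mice, against -0.11, 0.17 and 0.44 in control mice, with a difference of -0.33 (SE 0.19). Ifitm2 had -1.15, 0.64 and 0.24 in water-restricted mice, against -0.27, 0.63 and -0.09 in control mice, with a difference of -0.18 (SE 0.44). Both overlapped between groups. Ifitm2 had the second largest F between mice of 1 group among the members (15.3, limma adjusted p = 0.0634), which did not pass, and water-restricted mouse 1 was its most negative mouse. Without the array that stood apart, and with each array scaled to 1 spread, Ifitm2 passed. The difference of Ifitm2 turned to 0.35 without water-restricted mouse 1 and to 0.09 without control mouse 2. Whether each clone also hybridised RNA of the other gene was not tested.

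The promoters of both genes are printed because they hold the interferon-stimulated response element core GAAANNGAA, at which Stat and Irf factors act. Capitals mark its matches. Both windows are on the minus strand of GRCm38.p6 (RefSeq), chr7:140955912-140956211 for Ifitm2 and chr7:141010695-141010994 for Ifitm3.
Ifitm2: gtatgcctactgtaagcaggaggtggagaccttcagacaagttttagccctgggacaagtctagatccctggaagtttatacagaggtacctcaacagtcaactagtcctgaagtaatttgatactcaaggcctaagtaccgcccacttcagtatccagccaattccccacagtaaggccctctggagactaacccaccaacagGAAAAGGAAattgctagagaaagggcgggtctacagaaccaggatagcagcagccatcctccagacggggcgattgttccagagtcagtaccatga
Ifitm3: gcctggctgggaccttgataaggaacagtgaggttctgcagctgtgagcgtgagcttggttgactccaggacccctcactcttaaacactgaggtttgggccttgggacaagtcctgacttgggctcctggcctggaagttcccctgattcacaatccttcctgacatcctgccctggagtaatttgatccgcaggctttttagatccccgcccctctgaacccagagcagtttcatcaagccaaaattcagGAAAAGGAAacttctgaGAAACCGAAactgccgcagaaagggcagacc
The match of Ifitm2 starts at -46, and those of Ifitm3 at 2 and 19 from the annotated start, the second overlapping a STAT site match (TTCNNNGAA) at 13. Ifitm2 and the first match of Ifitm3 have the same 9 letters. On either strand, the core was in 5 of the 57 members with a promoter (8.77%), which were Cd9, Cd200r3, Ifitm2, Ifitm3 and Stat2. It was in 9.76% of all 27025 genes with a promoter, measured here or not. The STAT site letters were in 8 members (14.04%), against 9.55% of those genes. The NF-kB letters GGANTTTCC were in 3 members (5.26%), which were Ifngr2, Il16 and Il1rl2, against 1.45% of those genes. The differences between groups of these 3 were -0.32, 0.09 and -0.28.

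The remaining interferon genes were close to 0 or spread widely. Irf3, the factor that switches on type I interferon, gave 0.18, Irf9, the partner of Stat2, 0.06, Irf8, needed for dendritic cells and macrophages, -0.04, and Ifnar1, a chain of the type I interferon receptor, 0.03. Ifi30, a lysosomal thiol reductase that prepares antigens for class II loading, gave -0.05 (SE 0.33) and had levels of -0.84, 0.34 and 0.42 in water-restricted mice, against -0.24, 0.20 and 0.12 in control mice. Mouse 1 was the most negative of each group for Ifi30 as for Ifitm2. Isg20l2, a nuclease of ribosome production that shares a name with Isg20, gave 0.08.

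**Figure D4:**
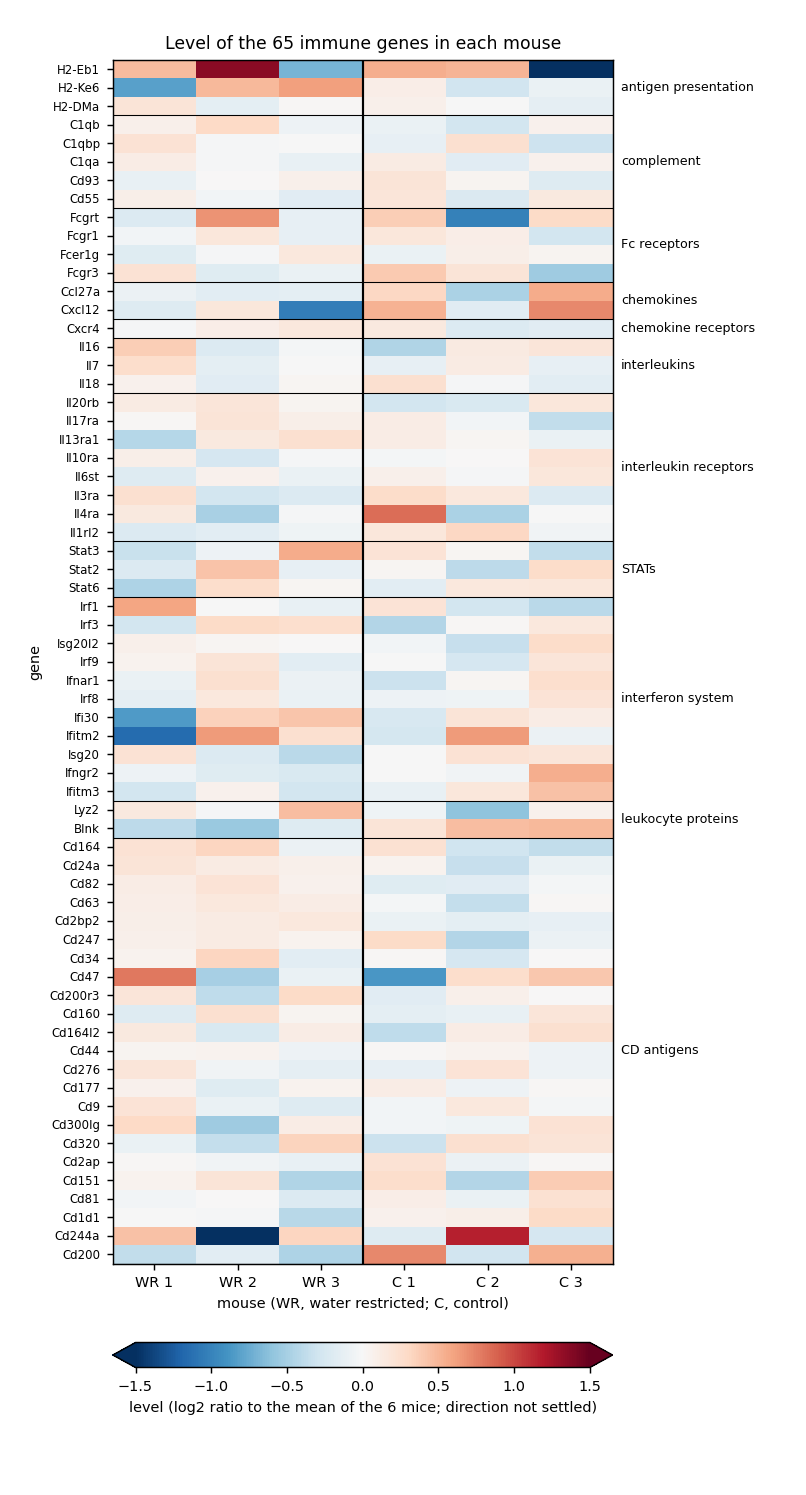
Level of each of the 65 immune genes (rows, by role) in each mouse (columns; WR water restricted, C control), as log2 ratio to the mean of the 6 mice, with the sign not settled. The colour scale ends at 1.5 in either direction, past which the level of H2-Eb1 in control mouse 3 lies; the groups are separate in 8 rows.

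Of 23 CD antigens, 12 were positive and 11 negative, with a median of 0.0085, and none passed the threshold in the comparison of groups. Cd200, a membrane protein whose receptor restrains myeloid cells, had levels of -0.37, -0.15 and -0.46 in water-restricted mice, against 0.73, -0.29 and 0.54 in control mice. Control mouse 2 lay among the water-restricted mice, so the groups overlapped. The difference was -0.65 (SE 0.26, 95% interval -1.25 to -0.05, limma adjusted p = 0.936), and the turned ratio was negative on 10 of 12 arrays. Read as already turned, the values gave -0.19. Cd200r3, a member of the receptor family of Cd200, gave 0.06 (SE 0.20).

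The tetraspanins are membrane organisers, and 5 were measured. Cd82 had levels of 0.11, 0.20 and 0.06 in water-restricted mice, against -0.18, -0.17 and -0.03 in control mice. The groups did not overlap, and the difference was 0.25 (SE 0.14). Cd63, a tetraspanin of lysosomes and exosomes, had 0.10, 0.15 and 0.12 in water-restricted mice, against -0.03, -0.36 and 0.02 in control mice. These also did not overlap, the difference was 0.25 (SE 0.16), and its 3 clones gave 0.33, 0.17 and 0.24. Cd9 gave -0.06, Cd81 -0.16 and Cd151 -0.13, so the tetraspanins did not share a side.

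Cd24a, a mucin-like antigen of developing lymphocytes and of tubular epithelium, had 0.20, 0.12 and 0.07 in water-restricted mice, against 0.06, -0.35 and -0.10 in control mice. The groups did not overlap, the difference was 0.26 (SE 0.16), and both of its clones gave 0.26. Cd2bp2, a splicing factor named for binding Cd2, had 0.09, 0.12 and 0.15 in water-restricted mice, against -0.10, -0.14 and -0.12 in control mice. Its groups were separate with a difference of 0.24 (SE 0.14), although its 2 clones, at 0.33 and 0.16, were each less even across mice. Cd1d1, which presents lipids to natural killer T cells, had -0.0071, -0.02 and -0.42 in water-restricted mice, against 0.06, 0.09 and 0.29 in control mice. These did not overlap either, and the difference was -0.29 (SE 0.17). Cd164, a sialomucin of progenitor cells, had 0.22, 0.32 and -0.09 in water-restricted mice, against 0.23, -0.30 and -0.37 in control mice, with overlap and a difference of 0.30 (SE 0.21).

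Cd47, the signal that protects cells from engulfment, had levels of 0.79, -0.49 and -0.10 in water-restricted mice, against -0.87, 0.26 and 0.41 in control mice. Mouse 1 was the extreme of each group in opposite directions, and the array that paired them gave 2.41. The difference was 0.13 (SE 0.41), and -0.23 without water-restricted mouse 1 or -0.27 without control mouse 1. Cd34, an antigen of endothelium and progenitors, had 0.05, 0.32 and -0.15 in water-restricted mice, against 0.02, -0.25 and 0.01 in control mice, with overlap and a difference of 0.15 (SE 0.18). Cd244a, a receptor of natural killer cells that was picked out after its values were seen, had the second widest range, 2.65 log2. Its ratio was -4.67 on the array that stood apart and between -0.33 and 0.67 on the others.

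The other CD antigens lay between -0.09 and 0.16. Cd44, the hyaluronan receptor, had the narrowest range of these, 0.14 log2 over the 6 mice, and a difference of 0.0085 (SE 0.14). Cd247, the T cell receptor zeta chain, gave 0.16, Cd160, a receptor of natural killer and T cells, 0.06, Cd276, an immune checkpoint ligand, -0.0034, Cd177, a neutrophil antigen, -0.04, and Cd300lg, an immunoglobulin-like protein of capillary endothelium, -0.07. Cd320, the receptor for transcobalamin-bound vitamin B12, gave -0.08, Cd164l2, a relative of Cd164, 0.02, and Cd2ap, an adaptor of the kidney's filtration slit, -0.09. The 2 clones of Cd2ap gave 0.05 and -0.24, and those of Il6st, named above, 0.0065 and -0.31.

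The ratio of some members held a part that followed the dye, about as often as over all genes. The dye term, the part of the deposited ratio that kept its sign when the dyes were swapped, had a limma adjusted p under 0.05 for 8 of the 65 members and for 11.3% of all genes. Of the 8, Cxcl12 (0.55, SE 0.10), Cd34 (0.48, SE 0.10) and Fcgrt (0.69, SE 0.19) were positive. Fcgr1 (-0.38, SE 0.08), Cxcr4 (-0.35, SE 0.08), Il18 (-0.35, SE 0.08), Cd1d1 (-0.36, SE 0.09) and Cd164 (-0.26, SE 0.06) were negative. Fcgrt was the 1 member whose deposited ratio had the same sign on all 12 arrays. For Fcgr1, Cd34, Cxcr4, Il18 and Fcgrt the dye term was over 2 times the difference between groups in size, and the dye orientations, fitted apart, gave opposite signs for Fcgr1, Cd34, Cxcr4, Cd1d1 and Fcgrt. Il18 was not fitted by orientation. Blnk had a dye term of 0.12 (SE 0.07) and H2-Eb1 one of 0.33 (SE 0.16), and neither passed.

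**Figure D5:**
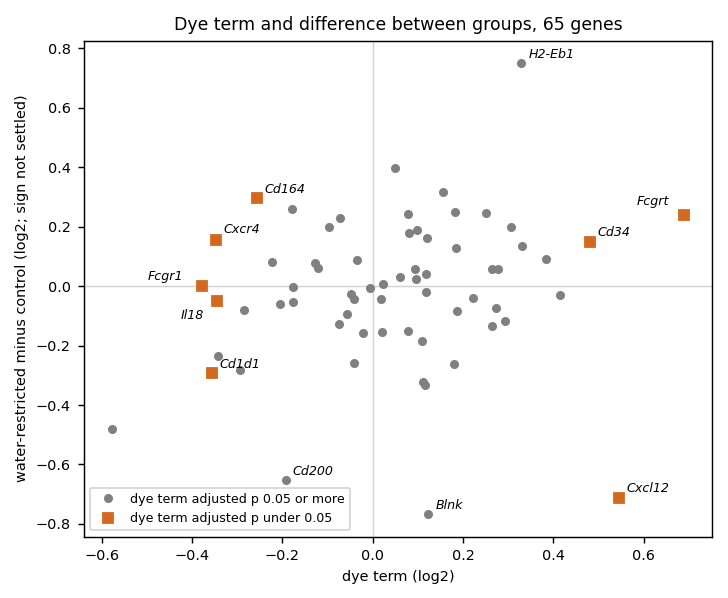
Dye term (x axis, log2) against the difference between groups (y axis, water-restricted minus control, log2, sign not settled) for the 65 immune genes; squares mark the 8 members whose dye term passed the threshold. Blnk and Cd200 lie low on the y axis at dye terms of 0.12 and -0.19, and Cxcl12 lies low at a dye term of 0.55.

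Genes of the same pathways outside the set, Cxcl1 among them, were listed separately, and 36 of 103 were measured. Of these 15 were positive and 21 negative, with a median of -0.05, and 0 passed the comparison of groups. At an unadjusted p under 0.05 there were 3, all positive, against 3.21% of all genes on that side, and with mice as random effects 1 passed. Cxcl1, the neutrophil chemokine, had levels of 1.03, 0.47 and 0.74 in water-restricted mice, against -1.28, -0.98 and 0.02 in control mice. The groups did not overlap and the difference was 1.49 (SE 0.32, limma adjusted p = 0.553; 0.0243 with mice as random effects). Lgmn, the lysosomal protease legumain, gave 0.64 (SE 0.24; 0.05 read as already turned), and Mif, a macrophage cytokine, gave 0.53 (SE 0.21). Lbp, which hands bacterial lipopolysaccharide to its receptors, had -0.65, -0.03 and -0.92 in water-restricted mice, against -0.20, -0.31 and 2.10 in control mice. It passed the F-test between mice of 1 group (F = 29.9, adjusted p = 0.0118), and control mouse 3, the most negative animal for H2-Eb1, was the most positive for Lbp. The class I genes B2m, Tap2 and Tapbp gave -0.07, -0.09 and -0.28, and 25 of the 36 listed genes measured lay within 0.25 of 0.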

How the data were processed

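The authors deposited 1 log2 ratio per spot and array, for 31200 spots on 12 arrays. Not given in the sources used here were background correction, normalization, centring and the numerator dye. The labels give the mice and dyes, Alexa Fluor 546 and 647. Adjacent spots of a clone were averaged to 15600 clones, and the 9191 clones with 1 gene in the platform annotation to 6786 genes. For each gene, weighted least squares with a dye term gave 6 mouse levels, arrays of a swapped pair weighing 0.5 each. The levels were compared 3 against 3 mice with limma 3.58.1 in R 4.3.3, with Benjamini-Hochberg adjustment at 0.05. Array noise is shared between the levels, which this test does not model. On the 12 arrays, limma also tested the dye term and mice of one group against each other. The fits were tested on simulated data. The number of arrays limits the precision. The members and gene lists were chosen with earlier results of these data known. Named genes were, besides any passing, the 16 members with the smallest p between groups, the 4 with the largest F, the 3 with the strongest dye term, the first of each role, and 4 pathway genes; other members are given as description. Alternatives were centring, scaling, weights, clone medians, no dye term, 1 dye orientation, swapped pairs, random mice, mouse number as a block, robust variance, the reading of the sign, and leaving out an array or mouse.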

Additional observations from a re-analysis of the deposited data

Results flagged for a closer look

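Of 52 sets of 6 arrays looked at, 1 per named member and dye orientation, 4 held an array far from the other 5 by Dixon's test, and chance alone flags about 1 set in 20. Where Alexa Fluor 647 labelled the water-restricted mouse, Blnk had a ratio of -0.47 on the array that paired water-restricted mouse 3 with control mouse 1, and -1.12 to -0.92 on the others. Where Alexa Fluor 546 did, Irf1 had 2.89 for water-restricted mouse 1 with control mouse 3, and -0.22 to 0.60 on the others. The spots of Irf1 on that array gave 5.25 and 0.52. Cd47 had 2.41 for water-restricted mouse 1 with control mouse 1, and -0.32 to 0.19 on the others, with spots at 2.81 and 2.01. Fcgrt had 3.33 for water-restricted mouse 2 with control mouse 2, and 0.05 to 0.79 on the others, with spots at 2.84 and 3.82.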

How the results depend on the processing

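No member passed the comparison of groups under any alternative but 1: with mice as random effects 1 did, Blnk. With the mouse number as a replicate block the count was also 0. Levels of mice of the same number correlated at -0.01, -0.54 and -0.11, and those of different numbers at -0.50 to 0.50. Array noise is shared between the levels, so these values cannot show whether mice of the same number shared anything else. Members passing between mice of one group numbered 2 with scaled arrays and 2 without the array that stood apart, 0 with values read as already turned, 0 with no dye term, and 0 to 1 on leaving out each mouse. Members passing the dye term numbered 5 with equal weights, 4 with values read as already turned, and 0 to 0 on leaving out each mouse. The median difference was 0.078 with values read as already turned. Members at an unadjusted p under 0.05 ran from 1 (replicate block) to 6 (random mice).

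Of 570 values of 30 named genes under alternatives, 39 changed side, none of them past the threshold, and 529 kept side and call. Read as already turned, the differences were Blnk 0.12, C1qb -0.10, Cd164 -0.26, Cd24a -0.18, Cxcl1 -0.24, Cxcl12 0.55, Cxcr4 -0.35, Fcgr1 -0.38, Ifitm2 0.11, Ifitm3 0.12, Ifngr2 0.11, Il20rb -0.072, Il7 -0.22, Isg20 0.18 and Stat6 0.29. On arrays where Alexa Fluor 546 labelled the water-restricted mouse, Cxcr4 gave -0.16, Fcgr1 -0.36, Il7 -0.10 and Stat6 0.12. On the others Cd1d1 gave 0.053, Cd34 -0.33, Cd47 -0.12, Cd63 -0.054, Fcgrt -0.47 and Il1rl2 0.072. With swapped pairs alone, Cd2bp2 gave -0.027 and Fcgrt -0.10, and without the array that stood apart Fcgrt gave -0.077. On leaving out each mouse, H2-Eb1 ran from -0.15 (without control mouse 3) to 1.29, Ifitm2 from -0.55 to 0.35 (without water-restricted mouse 1), Cd47 from -0.27 (without control mouse 1) to 0.41, Fcgr1 from -0.13 (without control mouse 3) to 0.087, Fcgrt from -0.21 (without control mouse 2) to 0.48, Stat6 from -0.28 to 0.086 (without water-restricted mouse 1) and Il7 from -0.034 (without water-restricted mouse 1) to 0.17. Leaving out a mouse leaves 8 arrays; other causes were not tested.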
